A study of Mus musculus with 12 samples.

Results

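The genes of the H2 complex, the major histocompatibility complex (MHC) of the mouse, were followed in the medial prefrontal cortex of 2 inbred strains. A gene was taken as a member when its name in the deposited expression table begins with H2-, and the rows of each name were summed. This gave 44 genes, spread over 150 of the 147902 rows, out of 55678 gene names in all. Each of 4 groups held 3 libraries, and the sample titles give each library its own animal number: C57BL/6JmsSlc (B6) handled controls 2, 3 and 9, B6 mice under chronic restraint stress (CRS) 12, 13 and 14, BALB/cCrSlc (BALB/c) handled controls 5, 9 and 10, and BALB/c mice under CRS 12, 13 and 15. All mice were 9 to 10 weeks old, and the labels name no transgene or mutation. CRS meant 6 h in a restrainer on each of 21 days, tissue was a punch of 1.5 mm taken once behaviour had been tested, and the sex of the mice is not given.

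MHC class I molecules sit on nearly all nucleated cells and show peptides from inside the cell to CD8 T cells and natural killer cells. Their heavy chain pairs with beta-2-microglobulin, and in the brain they are also known from neurons, glia and vessels, where classical class I proteins have been linked to synaptic pruning. Class II molecules, pairs of an alpha and a beta chain, show peptides taken up from outside and in brain are mostly found on microglia and macrophages of the borders. The complex is the most polymorphic part of the mouse genome, and the strains differ throughout it: B6 carries the b haplotype and BALB/c the d haplotype. BALB/c is also known to carry a further class I gene, H2-L, which is not analysed here. The submitters' processing notes name GRCm38, an assembly of the B6 genome, so a BALB/c read had to match a B6 sequence to be counted, and the effect of this on the levels below was not tested.

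By the GENCODE M21 annotation of GRCm38, all 44 members lie on chromosome 17 between 33974659 and 37483552; 43 matched by name, and H2-Ea is listed there as H2-Ea-ps. They comprise 2 classical class I genes, 24 non-classical class I genes (6 of the Q, 6 of the T and 12 of the M region), 5 classical and 5 non-classical class II genes, and 8 pseudogenes. H2-T10, H2-Bl and H2-Ea, which that annotation lists as polymorphic pseudogenes in the same way as H2-Q5, are counted here with the T region and with class II, and H2-Q5 with the pseudogenes. Expression was given as TPM (transcript abundance corrected for length and scaled to the same total in every library), so levels can be set side by side between genes, but read depth is unknown. Of the 44 genes, 33 had a value above 0 in some library and 21 reached 1 TPM in at least 3 libraries and were tested. H2-Q1, H2-Q6, H2-Q7 and the pseudogene H2-T-ps passed this filter only through BALB/c libraries and H2-DMb1 only through B6 libraries. H2-T10, H2-Q2 and H2-M6-ps reached 1 TPM in only 1 B6 library each, and H2-K2 in only 1 BALB/c library. Counts over the tested genes are thus descriptive. The genes H2-K1, H2-D1, H2-T22, H2-T23 and H2-DMa together made up 72.2% to 86.7% of the summed H2 signal of a library.

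Facts of the libraries that touch these results are few. All 8 neuron markers were above the filter, with summed levels of 3082 to 6268 TPM. The entry Rn18s-rs5, a sequence related to 18S rRNA, took 3.97% of TPM in BALB/c CRS 12 and at most 0.169% in any other library. Libraries also differed in markers of neighbouring tissue: 8 striatal markers summed to 189 to 2655 TPM in B6 and to 92.7 to 346 TPM in BALB/c, and 6 myelin markers to 2399 to 9223 TPM in B6 and to 461 to 2949 TPM in BALB/c. Microglia markers (17 genes, all tested) summed to 484 to 619 TPM in B6 and to 393 to 436 TPM in BALB/c, and 11 of the 17 were lower in BALB/c (14.3% of all tested genes were). The part of these differences in the strain differences of the H2 genes was not tested, and in bulk tissue fewer cells of a type and less RNA per cell cannot be told apart. P-values below set a difference against the spread between libraries of the same group.

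With treatments averaged, 8 class I genes differed between the strains. Among these, H2-K1, H2-D1 and H2-Q6 share the core of an enhancer known to bind NF-kB, which H2-Q7, not called, also holds. H2-T22 and H2-T23 hold the letters GAAANNGAA, a form of the core of the interferon-stimulated response element. H2-Q4 holds neither, and no window was found for H2-Q1 and H2-T10. H2-K1, H2-D1 and H2-Q6 also share the stretch agtttcacttct, left unmarked, and are not shown to lack an interferon element. Upstream sequence is shown for the 5 genes with either motif, which do not stand for all 8. These are B6 sequences, the 250 bases before a start of each gene in RefSeq (GRCm38.p6), read 5′ to 3′ on the strand of the gene: chr17:34000334-34000583 (minus strand) for H2-K1, chr17:35262844-35263093 (plus strand) for H2-D1, chr17:35424600-35424849 (plus strand) for H2-Q6, chr17:36042743-36042992 (minus strand) for H2-T22 and chr17:36032702-36032951 (minus strand) for H2-T23. Capitals mark matches, on either strand, to the enhancer core GGGATTCCC, the letters CCAAT, the letters TGACGC of a cAMP-response-like site, and GAAANNGAA of the interferon element; no match overlaps another.
H2-K1: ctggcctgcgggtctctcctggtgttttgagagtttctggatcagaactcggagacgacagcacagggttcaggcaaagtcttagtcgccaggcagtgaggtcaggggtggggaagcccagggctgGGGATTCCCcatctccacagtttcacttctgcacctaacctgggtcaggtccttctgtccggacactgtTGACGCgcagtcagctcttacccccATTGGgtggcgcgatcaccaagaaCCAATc
H2-D1: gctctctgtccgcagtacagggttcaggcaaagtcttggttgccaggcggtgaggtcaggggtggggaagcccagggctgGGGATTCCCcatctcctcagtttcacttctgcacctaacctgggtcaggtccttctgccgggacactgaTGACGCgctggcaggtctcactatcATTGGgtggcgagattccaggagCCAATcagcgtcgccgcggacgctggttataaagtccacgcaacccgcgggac
H2-Q6: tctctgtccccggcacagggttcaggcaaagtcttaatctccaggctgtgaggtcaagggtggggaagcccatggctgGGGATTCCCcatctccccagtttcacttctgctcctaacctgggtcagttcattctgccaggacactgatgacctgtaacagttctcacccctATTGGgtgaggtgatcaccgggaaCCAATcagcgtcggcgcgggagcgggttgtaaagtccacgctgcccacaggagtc
H2-T22: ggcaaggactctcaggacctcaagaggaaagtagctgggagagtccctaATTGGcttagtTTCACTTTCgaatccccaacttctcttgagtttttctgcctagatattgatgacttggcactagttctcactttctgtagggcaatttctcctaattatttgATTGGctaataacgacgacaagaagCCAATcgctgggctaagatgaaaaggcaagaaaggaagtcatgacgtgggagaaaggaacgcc
H2-T23: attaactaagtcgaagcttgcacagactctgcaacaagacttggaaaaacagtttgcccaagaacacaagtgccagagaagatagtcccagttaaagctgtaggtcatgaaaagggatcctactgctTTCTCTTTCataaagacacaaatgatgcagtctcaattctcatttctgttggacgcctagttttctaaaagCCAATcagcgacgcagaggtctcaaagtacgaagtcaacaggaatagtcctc

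RefSeq windows of 300 bases, which end 50 bases after the start, were found for 31 of the 44 genes (34 windows). The enhancer core GGGATTCCC was in 5 of these windows, those of H2-K1 (both of its windows), H2-D1, H2-Q6 and H2-Q7, against 116 of 32851 windows of all genes (0.353%). CCAAT was in 30 of the 34 windows (88.24%) against 37.408% of all windows. TGACGC was in 5 of the 34, with 7.403% of all windows holding it. The letters GAAANNGAA were in 2 of the 34, H2-T22 and H2-T23, with 8.56% of all windows holding them. Other forms of the interferon element were not searched for, so a window without these letters is not shown to lack one. A match is a run of letters in the B6 genome, and the BALB/c sequence of these windows is not analysed here.

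The strains differed at 10 of the 21 tested H2 genes when treatments were averaged (limma, Benjamini-Hochberg adjusted p under 0.05), where 18.4% of all 16423 tested genes were called. In BALB/c, H2-K1, H2-D1, H2-T22, H2-T23 and H2-DMb1 were lower and H2-Q1, H2-Q4, H2-Q6, H2-T10 and H2-T-ps higher. Lower calls made up 14.3% of all tested genes and higher calls 4.05%, so 78.0% of all calls were lower, against 54.1% with median-of-ratios scaling. At 8 of the 21 genes every BALB/c library lay on the same side of every B6 library, as at 8.95% of all tested genes. Among the 6 H2 genes with at least 1 TPM in all 12 libraries, which no filter could favour, 4 were lower, 1 (H2-Q4) was higher and H2-DMa was not called. The median strain difference over the 21 genes was 0.27 on the log2(TPM + 1) scale, against -0.08 over all tested genes. With no filter on low values, the median over the 33 members above 0 was 0.07.

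**Figure D1:**
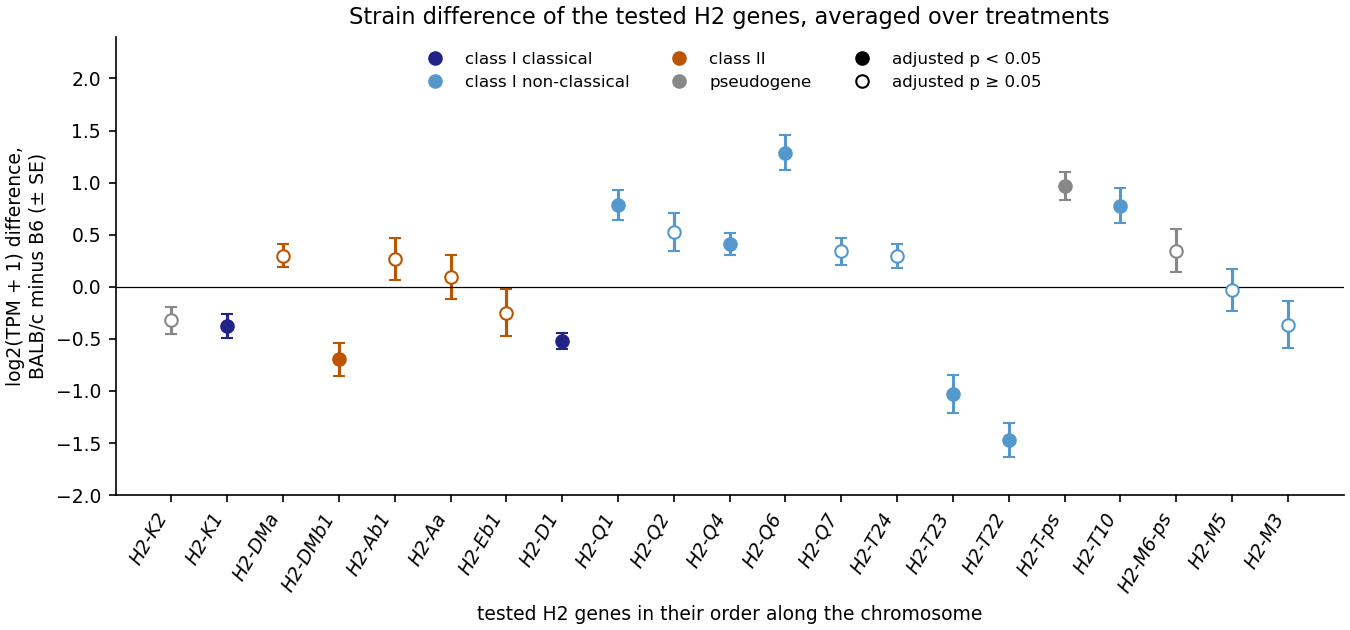
Strain difference of each of the 21 tested H2 genes, averaged over treatments, on the log2(TPM + 1) scale (y axis, BALB/c minus B6, with SE); genes stand in their order along chromosome 17 (x axis), and filled points have an adjusted p under 0.05. The lowest points are H2-T22 and H2-T23 and the highest is H2-Q6, with members of both directions in the T region.

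The classical class I genes H2-K1 and H2-D1 encode the K and D heavy chains that present most peptides to CD8 T cells. H2-D1 stood at 24.6, 23.9 and 26.8 TPM in B6 controls, 22.1, 23.3 and 23.9 TPM under CRS in B6, 15.4, 15.0 and 15.5 TPM in BALB/c controls and 16.2, 17.0 and 20.4 TPM under CRS in BALB/c. Every BALB/c library lay below every B6 library. The averaged difference was -0.52 (SE 0.08, limma adjusted p = 0.000739), with -0.68 in controls (adjusted p = 0.00251) and -0.36 under CRS (adjusted p = 0.0616), the last not called.

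H2-K1 stood at 21.6, 27.8 and 17.9 TPM in B6 controls, 28.3, 23.1 and 26.0 TPM under CRS in B6, 15.7, 14.6 and 14.4 TPM in BALB/c controls and 18.9, 21.4 and 26.0 TPM under CRS in BALB/c. In controls all 3 BALB/c libraries were below the B6 libraries, while under CRS the strains overlapped. The averaged difference was -0.38 (SE 0.11, limma adjusted p = 0.0374), and neither the difference in controls (-0.54, adjusted p = 0.0855) nor that under CRS (-0.22, adjusted p = 0.447) was called. The averaged call was lost in 9 of the 12 fits that left out 1 library, with adjusted p up to 0.0914 without B6 CRS 12. Both classical genes together summed to 48.2 ± 2.84 TPM (SD) over the 6 libraries of B6 and to 35.1 ± 6.49 TPM over the 6 of BALB/c.

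**Figure D2:**
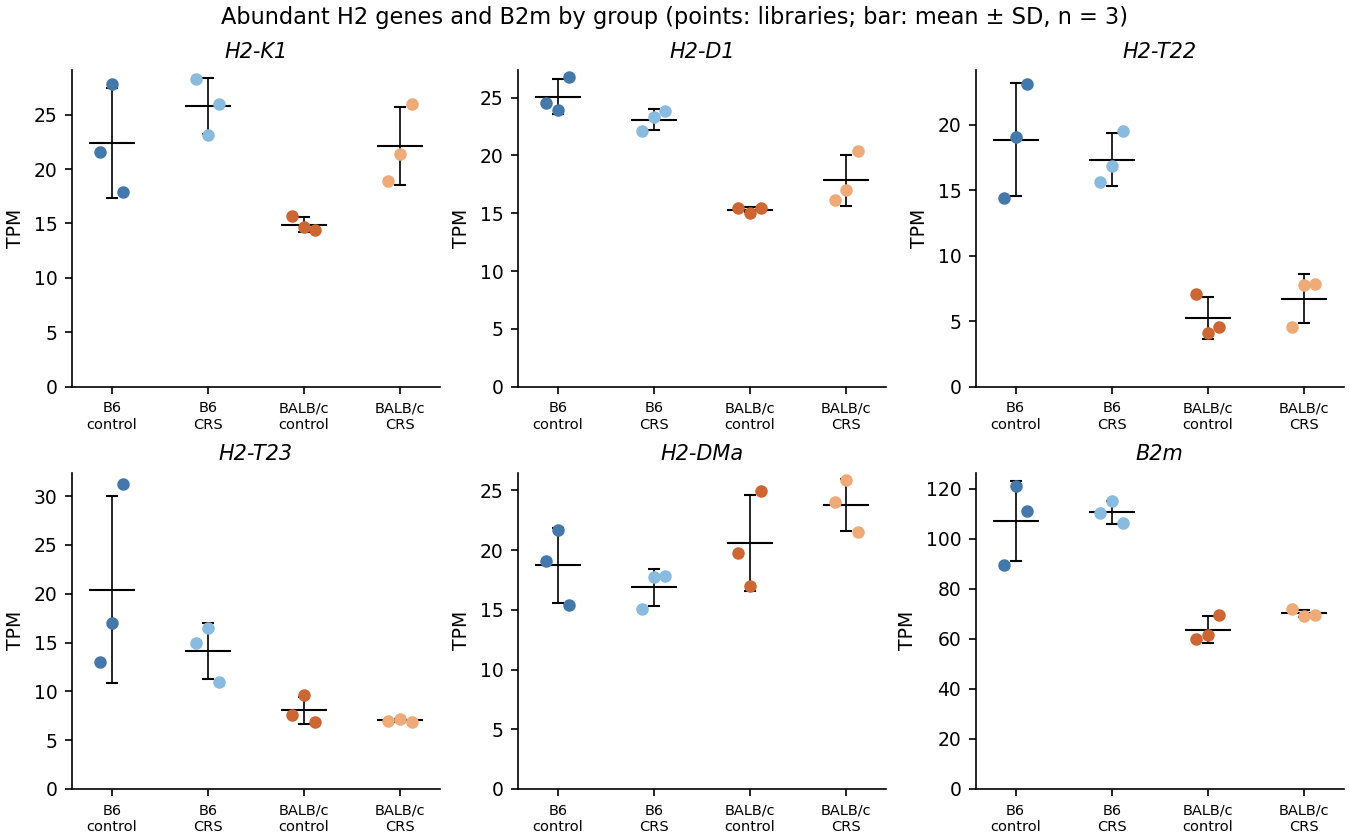
TPM (y axis) of the 5 most abundant H2 genes and of B2m, which encodes the partner chain of class I, by group (x axis); points are libraries and bars the mean ± SD of 3. H2-D1, H2-T22, H2-T23 and B2m do not overlap between strains, whereas H2-K1 and H2-DMa do.

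Beta-2-microglobulin, the light chain shared by class I molecules, is encoded by B2m outside the complex. Its level was 89.5, 121 and 111 TPM in B6 controls, 110, 115 and 106 TPM under CRS in B6, 59.9, 61.6 and 69.7 TPM in BALB/c controls and 71.9, 69.2 and 69.5 TPM under CRS in BALB/c. All BALB/c libraries were below all B6 libraries. B2m was lower in BALB/c by -0.69 on average (SE 0.08, limma adjusted p = 0.000117), by -0.73 in controls and by -0.65 under CRS, both called.

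Of the T region, H2-T22 is a close relative of H2-T10, and both are known as ligands of a subset of gamma-delta T cells. H2-T22 stood at 14.4, 19.1 and 23.1 TPM in B6 controls, 15.6, 16.8 and 19.5 TPM under CRS in B6, 7.10, 4.11 and 4.57 TPM in BALB/c controls and 4.57, 7.74 and 7.83 TPM under CRS in BALB/c. The strains were fully apart, and the 6 libraries of a strain averaged 18.1 ± 3.13 TPM (SD) in B6 against 5.99 ± 1.74 TPM in BALB/c. The averaged difference of -1.47 (SE 0.16, limma adjusted p = 7.5e-05) was the largest in size among the 21 tested H2 genes, and it was called in controls (-1.67, adjusted p = 0.00088) and under CRS (-1.27, adjusted p = 0.00618).

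H2-T10, a polymorphic pseudogene in the GENCODE M21 annotation of B6, went the other way. It stood at 0.196, 0.232 and 0.266 TPM in B6 controls, 0.533, 0.611 and 1.33 TPM under CRS in B6, 1.37, 1.49 and 1.46 TPM in BALB/c controls and 0.851, 2.36 and 2.06 TPM under CRS in BALB/c. Controls of the strains did not overlap, while B6 CRS 14 was above BALB/c CRS 12. H2-T10 was higher in BALB/c by 0.78 on average (SE 0.17, limma adjusted p = 0.00898) and by 0.99 in controls (adjusted p = 0.0376), a call lost in 7 of the 12 fits without 1 library (adjusted p up to 0.122 without BALB/c control 10), and by 0.57 under CRS, not called (adjusted p = 0.172).

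H2-T22 and H2-T10 share 31-base stretches in the B6 annotation: 51.0% of those of H2-T22 and 50.7% of those of H2-T10 also occur in another gene. Their sum ranged from 14.6 to 23.3 TPM in B6 and from 5.43 to 10.09 TPM in BALB/c, without overlap. With the pair merged, the averaged difference was -1.21 on the log2 scale (limma adjusted p = 0.000421).

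H2-T23 encodes Qa-1, which presents peptides from the leader sequences of other class I chains to an inhibitory receptor of natural killer cells. Its levels were 13.0, 17.0 and 31.2 TPM in B6 controls, 15.0, 16.5 and 10.9 TPM under CRS in B6, 7.58, 9.63 and 6.91 TPM in BALB/c controls and 7.0, 7.19 and 6.87 TPM under CRS in BALB/c. B6 control 9 stood far above the other B6 libraries, and the lowest B6 library was still above the highest BALB/c library. The averaged difference was -1.03 (SE 0.18, limma adjusted p = 0.00255), or -0.86 without B6 control 9 (adjusted p = 0.000862), with -1.16 in controls (adjusted p = 0.0221) and -0.90 under CRS, not called (adjusted p = 0.0539). The call in controls was lost without BALB/c control 5 (adjusted p = 0.0764) or BALB/c control 10 (adjusted p = 0.101; limma). When genes with near-identical transcripts were merged, H2-T23 joined 21 unrelated genes through a short transcript, and the averaged difference of that sum was -0.02.

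B6 control 9 also held the highest values of H2-M3 (4.26 TPM) and of H2-M5 (2.06 TPM), of the neuron markers (6268 TPM) and of the B cell gene Ighm (54.8 TPM, at most 17.4 TPM in any other library), and the lowest striatal sum of B6 (189 TPM). Whether these belong together was not tested.

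H2-T24, a further T region gene, stood at 0.980 ± 0.277 TPM (SD) over the 6 B6 libraries and at 1.41 ± 0.200 TPM over the 6 BALB/c libraries, with overlapping strains and a difference of 0.29 that was not called (limma adjusted p = 0.101). The pseudogene H2-T-ps ranged from 0 to 0.176 TPM in B6 and from 0.857 to 1.97 TPM in BALB/c, so that the strains did not overlap. It was higher in BALB/c by 0.97 on average (SE 0.14, limma adjusted p = 0.000609). Its call in controls was lost in 5 of the 9 fits without 1 library in which it passed the filter: those without B6 control 2, B6 control 3, B6 CRS 13, BALB/c control 9 or BALB/c control 10, with adjusted p of 0.0503 to 0.109. A total of 48.4% of its 31-base stretches also occur in other genes, most of them in H2-T23. Because H2-T23 is the more abundant partner, the sum of both was lower in BALB/c (-0.85 on average). H2-Bl and H2-T3, the gene of the thymus leukaemia antigen, stayed below the filter, at most 0.718 and 0.157 TPM.

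The Q region lies next to H2-D1 and encodes class I molecules of lower abundance and narrower polymorphism. H2-Q6 stood at 0.268, 0.637 and 0.224 TPM in B6 controls, 0.145, 0.376 and 0.201 TPM under CRS in B6, 1.54, 2.76 and 1.73 TPM in BALB/c controls and 1.44, 3.04 and 2.95 TPM under CRS in BALB/c. The strains did not overlap. H2-Q6 was higher by 1.29 on average (SE 0.17, limma adjusted p = 0.000338), by 1.12 in controls (adjusted p = 0.0196) and by 1.45 under CRS (adjusted p = 0.00357).

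The call of H2-Q6 in controls was lost without B6 control 2, BALB/c control 9 or BALB/c control 10, with adjusted p of 0.0547 to 0.0766. A total of 50.3% of its 31-base stretches occur in other genes, with H2-Q4 the gene that shares the most (24.6%). Merged with H2-Q4, it remained higher by 0.78 on average (limma adjusted p = 0.000793). Merged instead with Gm43558, a near-identical short transcript, the sum gave 0.81 on average (adjusted p = 0.413) and -0.25 in controls.

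H2-Q4, which encodes the Qb-1 antigen, stood at 3.67, 3.63 and 3.42 TPM in B6 controls, 2.82, 3.36 and 2.88 TPM under CRS in B6, 4.63, 3.84 and 4.15 TPM in BALB/c controls and 4.27, 5.21 and 6.39 TPM under CRS in BALB/c. Each BALB/c library was above each B6 library. The averaged difference was 0.41 (SE 0.11, limma adjusted p = 0.0191) and that under CRS 0.63 (adjusted p = 0.0252), while the controls gave 0.18 (adjusted p = 0.559). The call under CRS was lost without B6 CRS 12, B6 CRS 14, BALB/c CRS 13 or BALB/c CRS 15, with adjusted p of 0.0643 to 0.0975.

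H2-Q1 ranged from 0.0398 to 0.304 TPM in B6 and from 0.411 to 1.37 TPM in BALB/c, without overlap. It was higher by 0.78 on average (SE 0.14, limma adjusted p = 0.00325) and by 0.97 under CRS (adjusted p = 0.0142). Of the 9 fits without 1 library in which H2-Q1 passed the filter, the call under CRS was lost without B6 CRS 12 (limma adjusted p = 0.0627). In the remaining fits without 1 library it fell below the filter and was not tested.

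H2-Q2 ranged from 0 to 1.34 TPM in B6 and from 0.862 to 2.16 TPM in BALB/c, and H2-Q7, one of the genes of the Qa-2 antigen, from 0.713 to 0.924 TPM in B6 and from 0.905 to 2.29 TPM in BALB/c. Both overlapped between strains and neither was called (0.53 with limma adjusted p = 0.0622, and 0.34 with adjusted p = 0.0951). H2-Q10, which encodes a secreted class I molecule made mainly by liver, was below the filter. It ranged from 0.0366 to 0.0849 TPM in B6 and from 0.241 to 1.10 TPM in BALB/c. The 6 Q region genes summed to 4.58 to 5.79 TPM in B6 and to 9.57 to 13.9 TPM in BALB/c, while the 6 T region genes summed to 29.7 to 55.7 TPM in B6 and to 14.3 to 19.3 TPM in BALB/c.

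**Figure D3:**
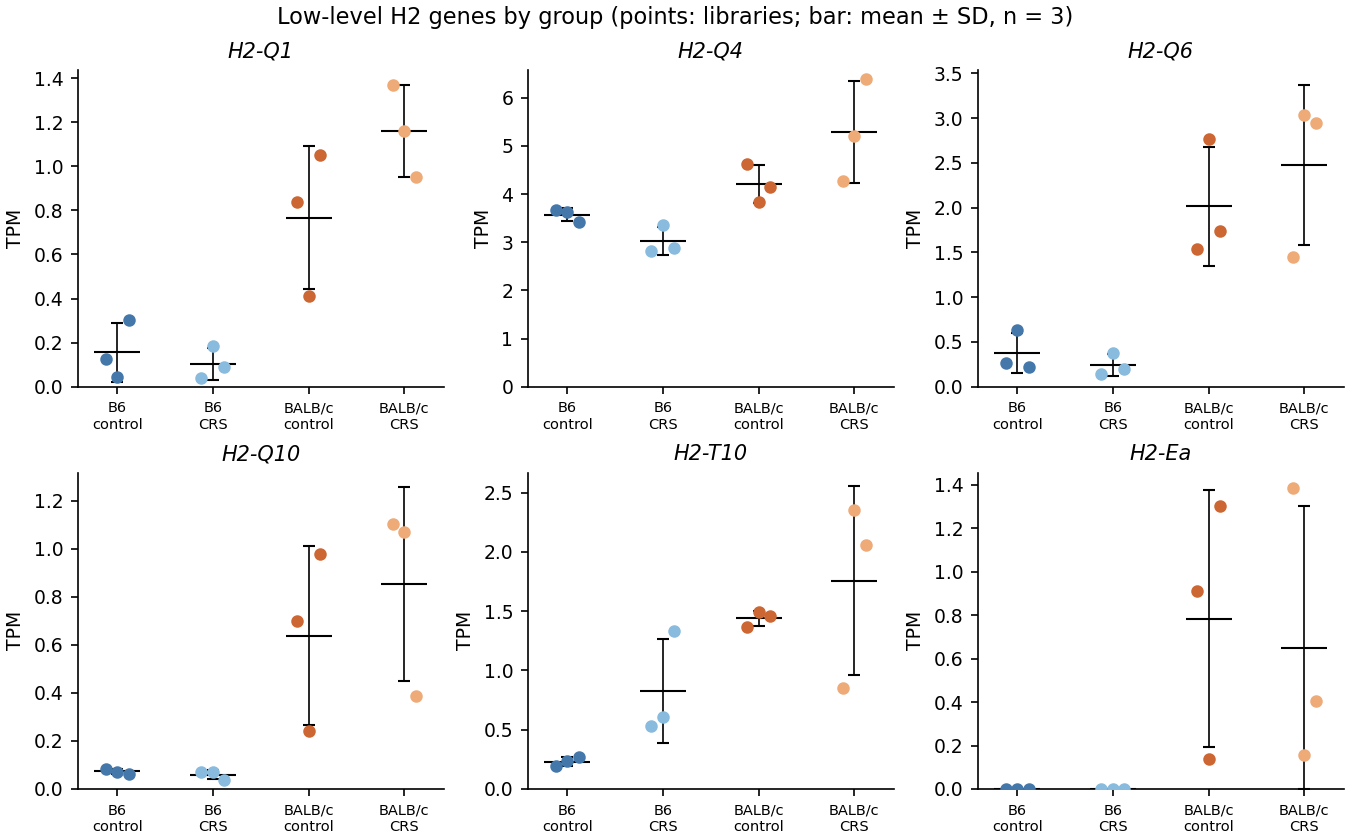
TPM (y axis, a separate scale in each panel) of 6 H2 genes of low level by group (x axis); points are libraries and bars the mean ± SD of 3. All 6 had their highest values in BALB/c, H2-Ea was at 0 in every B6 library, and H2-Q10 and H2-Ea were below the filter and not tested.

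In the M region, H2-M3, which presents formylated peptides of bacterial and mitochondrial origin, ranged from 1.28 to 4.26 TPM in B6 and from 0.712 to 2.12 TPM in BALB/c. H2-M5 ranged from 0.382 to 2.06 TPM in B6 and from 0.605 to 1.39 TPM in BALB/c. Both overlapped, with averaged differences of -0.36 (limma adjusted p = 0.291) and -0.03 (adjusted p = 0.942). The other 10 genes of the M region stayed below the filter. H2-M1, H2-M11 and the H2-M10.1 to H2-M10.6 genes, several of which are known from vomeronasal sensory neurons, were listed at 0 in all 12 libraries. H2-M2 and H2-M9 had a value in 1 library each, 0.0687 and 0.0918 TPM.

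Among pseudogenes, H2-K2 ranged from 0.655 to 1.65 TPM in B6 and from 0.413 to 1.10 TPM in BALB/c, and H2-M6-ps from 0 to 1.26 TPM in B6 and from 0.411 to 1.74 TPM in BALB/c. Neither was called (-0.32 with limma adjusted p = 0.106, and 0.35 with adjusted p = 0.28). The rows of H2-K2 were filled unequally: row 3 ranged from 0.337 to 1.54 TPM in B6 and was at 0 in every BALB/c library. As a single row it was called lower (-0.92, limma adjusted p = 0.0249). Row 3 passed the filter only through B6 libraries, where it is high, so this call is descriptive. In BALB/c all values above 0 lay in rows 6 and 7. H2-Q5 reached 0.653 TPM and H2-Pb 1.13 TPM, and H2-Pa, H2-Q3 and H2-M10.5-ps1 were listed at 0 throughout.

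Class II genes were led by H2-DMa, the alpha chain of the DM molecule, which helps class II exchange its placeholder peptide for antigen. H2-DMa stood at 19.1, 21.7 and 15.4 TPM in B6 controls, 15.1, 17.7 and 17.9 TPM under CRS in B6, 19.8, 17.0 and 25.0 TPM in BALB/c controls and 24.0, 25.9 and 21.5 TPM under CRS in BALB/c. The control groups overlapped, while under CRS all BALB/c libraries were above all B6 libraries. The difference was not called on average (0.30, SE 0.11, limma adjusted p = 0.0873), in controls (0.13, adjusted p = 0.734) or under CRS (0.47, adjusted p = 0.0921).

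H2-DMb1 encodes a beta chain for DM. Its levels were 1.65, 1.42 and 0.790 TPM in B6 controls, 1.95, 1.44 and 0.990 TPM under CRS in B6, 0.248, 0.161 and 0.535 TPM in BALB/c controls and 0.634, 0.703 and 0.459 TPM under CRS in BALB/c. The summed values of the strains did not overlap, and the averaged difference was -0.70 (SE 0.15, limma adjusted p = 0.00964). In B6 CRS 12, rows 2 and 3 of the gene gave 0.308 and 1.07 TPM, and both were at 0 in every other library. Row 1 stood at 0.576 TPM there, below BALB/c CRS 12 and 13, and it was not called (-0.55, limma adjusted p = 0.112). H2-DMb1 passed the filter only through B6 libraries and shares 31.4% of its 31-base stretches with H2-DMb2. Its duplicate H2-DMb2, with 36.4% of its 31-base stretches found elsewhere, ranged from 0.430 to 1.21 TPM in B6 and from 0.382 to 0.721 TPM in BALB/c and was below the filter.

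The classical class II genes H2-Aa and H2-Ab1 encode the I-A molecule and H2-Eb1 and H2-Ea the I-E molecule. H2-Aa ranged from 0.551 to 1.07 TPM in B6 and from 0.202 to 1.78 TPM in BALB/c, H2-Ab1 from 0.305 to 1.42 TPM in B6 and from 0.371 to 2.18 TPM in BALB/c, and H2-Eb1 from 0.664 to 2.39 TPM in B6 and from 0.193 to 2.03 TPM in BALB/c. All overlapped and none was called, with averaged differences of 0.09, 0.27 and -0.25 (limma adjusted p of 0.807, 0.388 and 0.483).

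H2-Ea, which in mice of the b haplotype is known not to be expressed and is annotated as a pseudogene of the B6 genome, was listed at 0 in all 6 B6 libraries. In BALB/c it stood at 0.913, 0.139 and 1.30 TPM in controls and at 1.39, 0.157 and 0.404 TPM under CRS. It was above 0 in 6 of 6 BALB/c libraries but reached 1 TPM in only 2 of them, so it was not tested; of its 31-base stretches none occurred in another gene. H2-Oa and H2-Ob, which encode an inhibitor of DM, reached 0.589 and 0.813 TPM, and H2-Eb2 had a value in 1 library (0.0445 TPM).

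Within a strain, CRS called no H2 gene. In B6, 0 of 21 genes passed (limma, adjusted p under 0.05), as did 0% of all tested genes. At an unadjusted p under 0.05, 2 of the 21 were found, against 4.82% of all tested genes: H2-Q2 had means of 0.259 ± 0.389 TPM in controls and 1.04 ± 0.278 TPM under CRS (SD, n = 3 each; difference 0.73, SE 0.25, limma unadjusted p = 0.0141, adjusted p = 1) and H2-T10 had a difference of 0.54 (SE 0.24, limma unadjusted p = 0.0443, adjusted p = 1). In both, the 3 CRS libraries were above the 3 controls, and in 7 of the 21 genes the groups did not overlap in either direction, against 8.33% of all tested genes. A total of 16 of the 21 differences were negative, with a median of -0.13, beside a median of 0 over all tested genes.

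In BALB/c, 0 of 21 genes passed, where 0.00609% of all tested genes were called (limma, adjusted p under 0.05). The largest difference was that of H2-K1, whose CRS libraries (18.9, 21.4 and 26.0 TPM) all lay above the controls (15.7, 14.6 and 14.4 TPM). It came to 0.53 (SE 0.16, limma unadjusted p = 0.00643, adjusted p = 1). The neighbouring pseudogene H2-K2 followed with 0.457 ± 0.0578 TPM in controls and 1.02 ± 0.0703 TPM under CRS (SD, n = 3 each; 0.47, limma unadjusted p = 0.0237, adjusted p = 1). These were the 2 of 21 with an unadjusted p under 0.05, against 3.03% of all tested genes. H2-D1 was also separate between the groups, with a difference of 0.20 (limma unadjusted p = 0.084, adjusted p = 1), and these 3 of 21 genes did not overlap, against 7.39% of all tested genes. A total of 18 of the 21 differences were positive, with a median of 0.24, where 10261 of the 16423 tested genes were positive with a median of 0.05.

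Summed levels showed the same groups side by side, with no test. In BALB/c the 2 classical class I genes summed to 31.1, 29.7 and 29.8 TPM in controls and to 35.1, 38.4 and 46.4 TPM under CRS, and the Q region genes to 9.57, 9.95 and 9.72 TPM in controls and to 11.6, 13.4 and 13.9 TPM under CRS. Neither pair of groups overlapped. The T region genes did overlap in BALB/c, at 17.6, 16.5 and 14.6 TPM in controls and 14.3, 19.3 and 18.3 TPM under CRS, and the Q region genes overlapped in B6, at 5.72, 5.27 and 4.93 TPM in controls and 4.58, 5.79 and 5.37 TPM under CRS. In B6 the classical genes summed to 46.1, 51.7 and 44.6 TPM in controls and to 50.4, 46.4 and 49.9 TPM under CRS, which overlapped. The sums of the T region in B6, and of the M region, the classical class II genes and the pseudogenes in both strains, overlapped too. The non-classical class II genes overlapped in both strains, at 18.2 to 24.8 TPM in B6 controls, 18.1 to 20.5 TPM under CRS in B6, 18.4 to 26.4 TPM in BALB/c controls and 22.9 to 27.4 TPM under CRS in BALB/c.

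**Figure D4:**
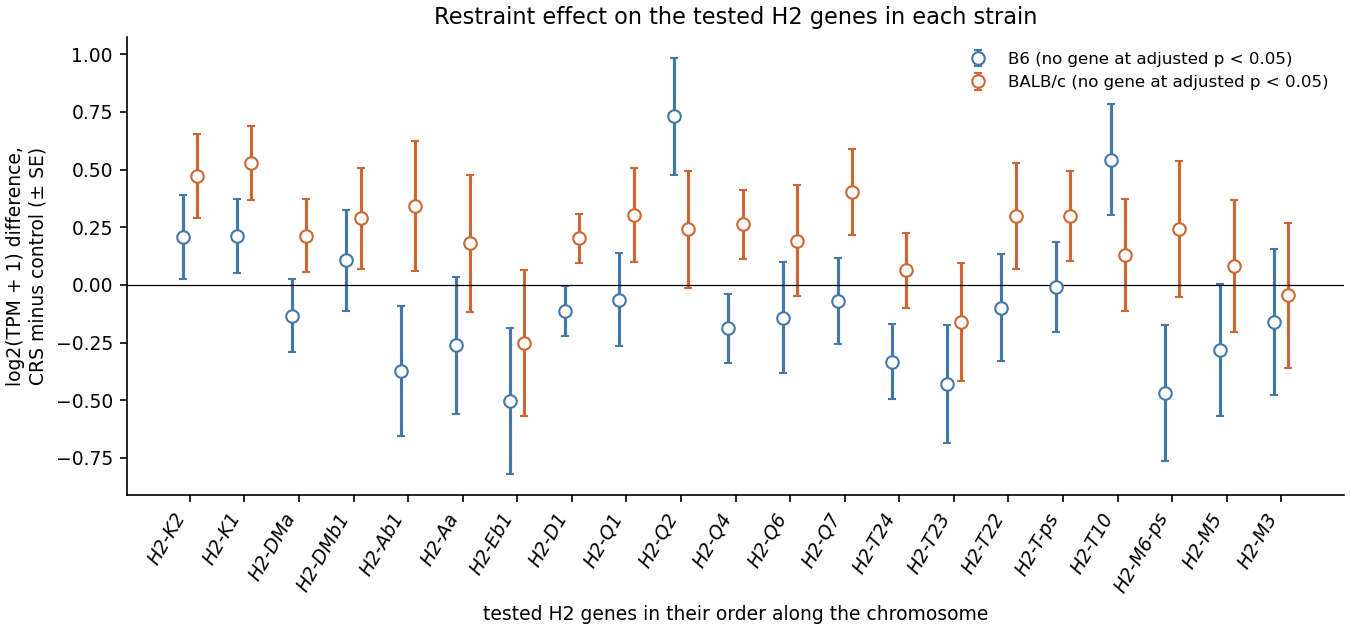
CRS minus control difference of each of the 21 tested H2 genes on the log2(TPM + 1) scale (y axis, with SE) in B6 and in BALB/c, genes in their order along chromosome 17 (x axis). In B6 16 of the 21 points lie below 0 and in BALB/c 18 lie above it, and no point has an adjusted p under 0.05 in either strain.

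The interaction, which asks whether the CRS difference itself differed between strains, was called at 0 of 21 H2 genes, as it was at 0% of all tested genes (limma, adjusted p under 0.05). No H2 gene had an unadjusted p under 0.05 either, against 2.70% of all tested genes. The smallest unadjusted limma p was that of H2-Q4 (0.0537, adjusted p = 1), with an interaction of 0.45 (SE 0.21). The interaction was positive at 19 of 21 genes, with a median of 0.33 beside 0.05 over all tested genes, and the genes share sequence and libraries, so they are not independent. With CRS averaged over strains, 0 of 21 were called, where 0.00609% of all tested genes were, and 3 of 21 had an unadjusted limma p under 0.05 against 5.17%: H2-K1 (0.37), H2-Q2 (0.49) and H2-K2 (0.34).

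The strain comparisons within a treatment share no library with each other, but each shares its libraries with the CRS comparisons above. In controls 6 of 21 H2 genes were called (limma, adjusted p under 0.05), where 4.73% of all tested genes were: H2-D1, H2-T22 and H2-T23 were lower in BALB/c (3.37% of all tested genes were) and H2-Q6, H2-T10 and H2-T-ps higher (1.36%). Under CRS 5 of 21 were called, where 7.70% of all tested genes were: H2-T22 was lower (5.33% of all tested genes were) and H2-Q1, H2-Q4, H2-Q6 and H2-T-ps higher (2.37%). Since no interaction was called, the genes named in 1 of these lists alone are not shown to differ between treatments. The count in controls fell to 2 without BALB/c control 10 and to 3 without B6 control 2, BALB/c control 5 or BALB/c control 9, and the count under CRS to 2 without BALB/c CRS 13 and to 3 without B6 CRS 12. H2-Q1, H2-Q6 and H2-T-ps passed the filter only through BALB/c libraries, so the counts above are descriptive. Among the 6 H2 genes with at least 1 TPM in all 12 libraries, 3 were lower and 0 higher in controls. Under CRS 1 of these 6 was lower and 1 higher.

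The single rows of a gene, apparently its transcripts, showed how each total was made up. A total of 28 H2 rows were tested and 13 were called (5 higher and 8 lower in BALB/c; limma, adjusted p under 0.05), where 6.05% of the 46000 tested rows were called (1.68% higher and 4.37% lower). Of the higher rows, row 2 of H2-Q1, row 2 of H2-Q6, row 3 of H2-T22 and the row of H2-T-ps passed the filter only through BALB/c libraries. Some lower rows, such as row 3 of H2-K2, passed it only through B6 libraries. The filter favours calls of such rows, so the row counts are descriptive. Row 6 of the 16 rows of H2-K1 held 55.0% to 88.5% of the gene in B6 and 20.6% to 32.4% in BALB/c. It stood between 11.1 and 19.1 TPM in B6 and between 4.52 and 5.77 TPM in BALB/c, a difference of -1.47 (limma adjusted p = 4.4e-05), more than that of the gene as a whole (-0.38). Row 7 held 0% to 17.8% in B6 and 23.5% to 43.2% in BALB/c, and its difference of 1.64 was not called (limma adjusted p = 0.0821).

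In H2-T22, row 3 ranged from 0 to 0.425 TPM in B6 and from 0.612 to 2.94 TPM in BALB/c, and it was higher in BALB/c by 1.30 (limma adjusted p = 0.00672). The other 4 rows of H2-T22 were all lower in BALB/c, by -0.83 to -1.86, and all were called. The files do not name the transcript of a row, and a change in splicing, in allele and in how reads were shared among similar transcripts cannot be told apart.

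**Figure D5:**
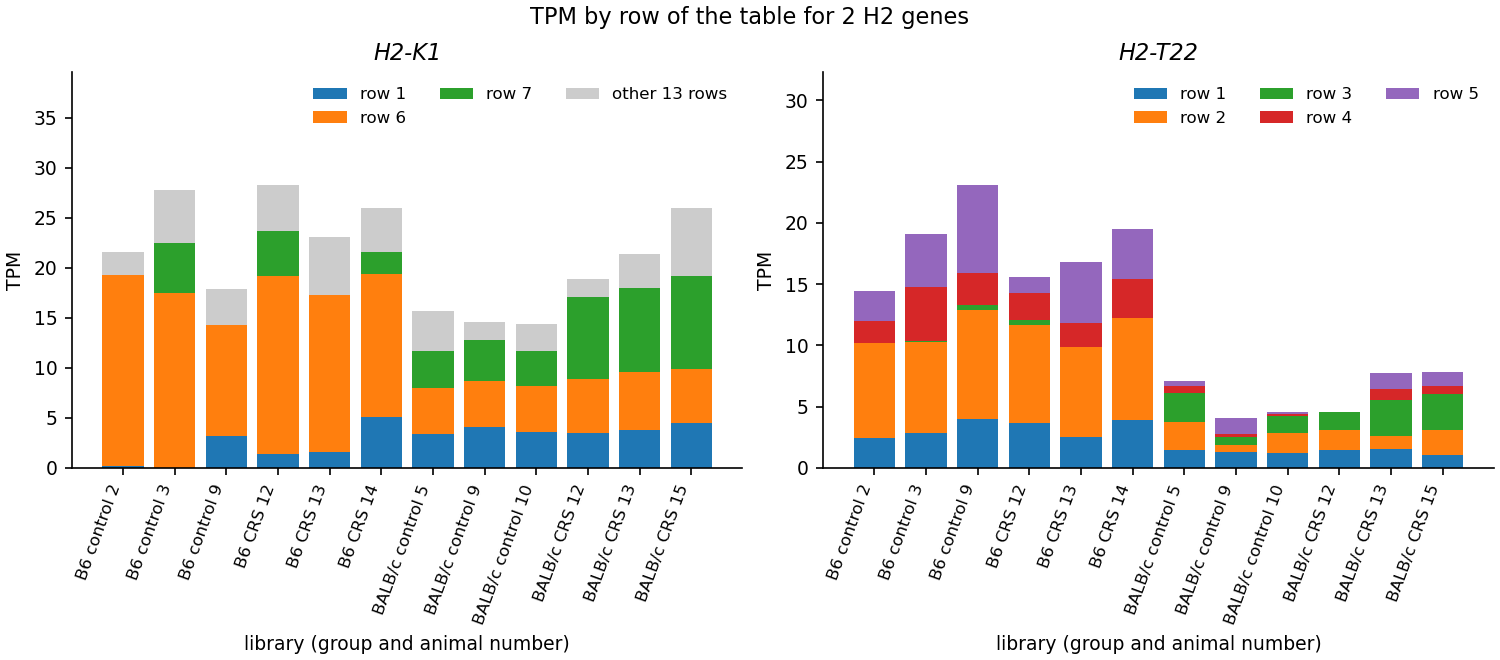
TPM (y axis) of H2-K1 (left) and H2-T22 (right) in each library (x axis), with bars stacked by row of the deposited table, apparently 1 transcript each. Row 6 of H2-K1 fills 55.0% to 88.5% of the bar in B6 and at most 32.4% in BALB/c, and row 3 of H2-T22 reaches at most 0.425 TPM in B6.

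Shared sequence was uneven among members. Of the 31-base stretches of a gene's annotated transcripts, 26.7% in H2-D1, 24.5% in H2-T23 and 22.8% in H2-K1 also occurred in another gene, against 0% in H2-DMa and under 1.1% in H2-Ab1, H2-Aa and H2-Eb1. Of the 12 tested genes with a share of at least 20%, 10 were called on average, all but H2-Q2 and H2-Q7, where 18.4% of all tested genes were called. Of these 12, H2-Q1, H2-Q6, H2-Q7, H2-T-ps and H2-DMb1 passed the filter through 1 strain only. None of the 7 tested genes below 5% was called (H2-DMa, H2-Aa, H2-Ab1, H2-Eb1, H2-M3, H2-M5 and H2-M6-ps), and neither were the 2 in between (H2-K2 and H2-T24). The genes below 5% are all of class II or of the M region, and shares were not counted for genes outside the complex. These counts are descriptive, and the part of shared sequence in the calls was not tested.

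The machinery that loads class I, from the proteasome and the peptide transporter to the chaperones of the heavy chain, was called about as often as all genes. Of 15 listed genes 14 were tested and 2 called on average, where 18.4% of all tested genes were: 1 was higher in BALB/c (Psmb10, an immunoproteasome subunit, 0.46, limma adjusted p = 0.0376) and 1 lower (B2m). Tap1 and Tap2, the peptide transporter, gave 0.07 and -0.28, and Tapbp, which bridges it to class I, -0.18; none was called. Nlrc5, the activator of class I genes, was at most 0.394 TPM and below the filter. The median of the 14 genes was -0.08, the same as over all tested genes.

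For class II, 8 of 9 listed genes were tested and 2 called on average, again beside 18.4% of all tested genes, with 1 higher in BALB/c (Ifi30, a lysosomal thiol reductase, 0.73, limma adjusted p = 0.0152) and 1 lower (Rfxank, part of the class II promoter complex, -0.29, adjusted p = 0.0478). Cd74, the invariant chain, ranged from 1.97 to 2.84 TPM in B6 and from 0.326 to 5.64 TPM in BALB/c and was not called (-0.11). Ciita, the class II activator, was at most 0.0459 TPM and below the filter. Of a list of receptors and class I-like genes outside the complex, which also holds Cd4, the co-receptor for class II, 5 of 11 were tested and 3 were lower in BALB/c, where 14.3% of all tested genes were: Fcgrt (-0.33), Hfe (-0.69) and Cd4 (-2.32), all called by limma on average. Cd4 stood at 24.4, 2.55 and 0.852 TPM in B6 controls and 19.4, 12.2 and 6.29 TPM under CRS in B6, in the same order of libraries as the striatal sums (2655, 403, 189, 2164, 1584 and 823 TPM). The part of the striatal signal in its difference was not tested.

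Genes that lie among the H2 genes but do not encode MHC molecules were compared as neighbours. Of 33 tested class III genes, 1 was higher in BALB/c (Msh5, a meiotic DNA repair gene, 0.73, limma adjusted p = 0.00558) and 4 were lower, and of 18 tested genes flanking class II, 1 was higher (Vps52, a membrane traffic gene, 0.52, adjusted p = 0.00242) and 3 were lower. The largest was Rps18, a ribosomal protein gene with near-identical copies elsewhere, at 502 to 644 TPM in B6 and 26.7 to 34.4 TPM in BALB/c (-4.24). The median difference was -0.04 for the class III genes and -0.08 for the flanking genes. Called in all were 5 of the 33 class III genes and 4 of the 18 flanking genes, where 18.4% of all tested genes were, so neither group stood far from the background.

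Of 19 tested interferon-response genes, 8 were lower in BALB/c and 0 higher on average (limma, adjusted p under 0.05), with a median of -0.41. For this and the lists that follow, 14.3% of all tested genes were lower and 4.05% higher, a split that was more even with median-of-ratios scaling, as given above. Ifit3 was the most different, at 5.49 to 7.36 TPM in B6 and 0.678 to 2.02 TPM in BALB/c (-1.80). Of the markers of cells that carry class II, 11 of 17 microglia markers were lower in BALB/c, as was the 1 tested B cell marker, Ighm (-0.99, limma adjusted p = 0.0279). None of the 5 tested markers of border macrophages and dendritic cells was called (1 had an unadjusted limma p under 0.05, against 32.0% of all tested genes). All 13 listed markers of these cells, tested or not, summed to 9.65 to 15.1 TPM in B6 and 8.74 to 13.8 TPM in BALB/c. Among cells that also carry class I, 0 of 9 endothelial markers (4 with an unadjusted limma p under 0.05), 3 of 6 astrocyte markers (all lower) and 6 of 6 myelin markers (all lower) were called. Of 4 tested blood markers 1 was lower. T and NK cell markers summed to at most 1.93 TPM in any library, and Cd3e, a subunit of the T cell receptor complex, was listed at 0 in all 12. In the striatal list all 8 were lower in BALB/c, led by Adora2a (-3.16) and Penk (-2.91), and of 8 neuron markers 1 was higher (Neurod6, 0.78) and 2 were lower. No gene of these lists was called in a CRS comparison, and their part in the H2 differences was not tested.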

How the data were processed

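Stranded mRNA libraries of 12 mice (4 groups of 3, medial prefrontal cortex) gave about 6 Gb each in paired reads of 150 bp, per the labels' protocols; groups and animal numbers came from the sample titles. Per the submitters' processing notes, cutadapt 2.9, Salmon and GRCm38 were used; the annotation and strand setting are not given in the sources used here. TPM values are those the authors deposited, in 1 table of the series with 147902 rows; each column summed to 1000000, from which the unit was read. Depth is unknown, so precision rests on the spread between libraries.

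TPM was summed per gene name. The 16423 genes that reached 1 TPM in 3 or more libraries were tested on log2(TPM + 1) in limma 3.58.1 (R 4.3.3) with 4 group means, 8 residual degrees of freedom, an intensity trend and Benjamini-Hochberg adjustment over all tested genes at 0.05. Single rows were fitted the same way. Differences on this scale understate those of low genes. On simulated data of the averaged strain comparison (16423 genes), 84% of genes changed by 1 on the log2 scale and 95% of those changed by 2 were recovered, with 8 false calls.

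Shared 31-base stretches were counted on GENCODE M21 transcripts, and near-identical genes (at least 95% identity over 80% of the shorter transcript) were found with blastn 2.17.0. M21 differs from the deposited rows for some members: it holds 2 transcripts of H2-K2 against 7 rows, and 4 of H2-D1 against 3. The shares of stretches thus need not be those of the annotation behind the TPM values. The members, lists and tests were chosen with earlier results of these data known. Every member that passed the filter was to be named, with B2m, Tap1, Tap2, Tapbp, Cd74, Ciita, Nlrc5 and up to 3 called list genes of largest rise and of largest fall per strain comparison; Psmb10, Rfxank, Fcgrt, Hfe, Cd4, Vps52, Ifit3, Ighm and Cd3e were chosen after their values were seen. Alternatives were another pseudocount, other filters, median-of-ratios scaling, no trend, a block for shared animal numbers, merged genes and leaving out libraries.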

Additional observations from a re-analysis of the deposited data

How the results depend on the processing

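Counts of H2 genes called for CRS in either strain, for CRS averaged over strains and for the interaction were 0 under every alternative run. The averaged strain count (10) was 4 with a mean filter of 5 TPM, 13 with median-of-ratios scaling (9 higher and 4 lower, against 5 and 5), 14 without the trend, 8 under either merging and 7 to 10 when a library was left out. The count in controls (6) was 3 with the mean filter and 2 to 8 without a library, and that under CRS (5) was 1 and 2 to 6. The row count (13) was 3 with the mean filter and 9 to 14 without a library. The mean filter removes most H2 genes from the test. Among called genes, directions reversed only with merged genes: to -0.25 for H2-Q6 in controls when joined to Gm43558; to -1.02, -0.67 and -0.85 for H2-T-ps in controls, under CRS and on average when summed with H2-T23; and to -1.38 and -1.21 for H2-T10 in controls and on average when summed with H2-T22. The summing by shared sequence was chosen after seeing the data, as was leaving out BALB/c CRS 12 and B6 control 9 together, which gave 9 averaged calls. The averaged call of H2-K1 was lost with scaling (adjusted p = 0.0796) and without the filter (adjusted p = 0.066; limma); its cause was not tested. Scaling moved the median of all genes from -0.10 to 0.00 in controls and the share of lower calls on average from 78.0% to 54.1%.

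Animal numbers 9, 12 and 13 are shared between strains but are different mice, and the correlations of their deviations (-0.24, -0.03 and -0.04) show no pairing. With a replicate block the averaged count was 9, that in controls 5 and that under CRS 5, and H2-K1 on average (adjusted p = 0.0525), H2-T-ps in controls (adjusted p = 0.0946) and H2-Q1 under CRS (adjusted p = 0.0512; limma) were no longer called.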

Other observations

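Row 7 of H2-K1, chosen after its values were seen, stood at 3.69, 4.10 and 3.51 TPM in BALB/c controls and at 8.19, 8.39 and 9.26 TPM under CRS in BALB/c. Row 6 of the same gene stood at 4.60, 4.52 and 4.66 TPM in those controls and at 5.45, 5.77 and 5.37 TPM under CRS. Neither row overlapped between the groups, and most of the gain of the H2-K1 total in BALB/c under CRS lay in row 7. In B6, row 7 was at 0 in controls 2 and 9 and in CRS 13, and reached 4.94 TPM in control 3 and 4.55 TPM in CRS 12. CRS was not tested on single rows, and without a transcript name per row these values cannot be tied to an isoform.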
